A study of Mus musculus with 4 samples.

Results

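miR-191 and miR-425 are microRNAs cut from neighbouring hairpins of the mouse genome, and the mature strands of both hairpins, miR-191-5p, miR-191-3p, miR-425-5p and miR-425-3p, were followed here by exact match of their names. All 4 were found, among 869 miRNAs with a value in at least 1 sample. Small RNA had been sequenced from C2C12 myotubes, which form when this mouse myoblast line (strain background 129/Rej in the labels) is moved from growth medium to differentiation medium with little serum. The myotubes were harvested at day 6, as 2 samples that had differentiation medium alone (NC) and 2 samples that had the same medium with 20 mM guanidinoacetic acid (GAA), the precursor of creatine. C2C12 is a single clonal line, and the labels do not say whether the samples of a group were separate cultures, so p-values measure only the spread between these samples, which may be technical. The labels name neither runs nor dates, so no values within batches could be formed.

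A miRNA hairpin is cut by Drosha and Dicer into a short duplex, of which 1 strand (the guide) is loaded into Argonaute and pairs with mRNAs through bases 2 to 8, the seed, while the other strand (the passenger) is mostly degraded. Hairpins made from the same primary transcript are transcribed together and can still differ in the amounts of their mature strands. miR-191-5p and miR-425-5p are expressed in many tissues and are often taken as reference miRNAs in qRT-PCR, which makes their steadiness between conditions a question of its own.

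The mature sequences are given because they show how far the 4 miRNAs of the cluster differ from each other. Each is written 5′ to 3′ from the RefSeq annotation of GRCm38.p6, with the seed in capitals.
miR-191-5p: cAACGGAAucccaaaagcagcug
miR-191-3p: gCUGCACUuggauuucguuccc
miR-425-5p: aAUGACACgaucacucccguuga
miR-425-3p: aUCGGGAAugucguguccgcc
The 4 seeds were all different, and no pair of the mature sequences shared a run of more than 5 bases. Among the 1679 mature names of the RefSeq table, miR-489-3p was the only other one with a member's seed, that of miR-425-5p, and it had no reads in any sample. The mature forms were 23 bases long for miR-191-5p and miR-425-5p, 22 for miR-191-3p and 21 for miR-425-3p, and since a read covers a whole miRNA, their RPM values were compared without division by length.

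The hairpins are printed to show where the strands sit, with both mature strands of each in capitals and the loop and the flanks in lower case. Mir191 lies at chr9:108568319-108568392 and Mir425 at chr9:108568777-108568861, both on the plus strand of GRCm38.
Mir191: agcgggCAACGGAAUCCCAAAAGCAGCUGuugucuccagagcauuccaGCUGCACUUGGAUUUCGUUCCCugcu
Mir425: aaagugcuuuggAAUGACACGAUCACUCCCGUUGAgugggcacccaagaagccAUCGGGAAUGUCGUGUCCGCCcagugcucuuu
The hairpins were separated by 384 bases. The minimum free energy that RNAfold gave was -35.0 kcal/mol for the 74 bases of Mir191 and -31.7 kcal/mol for the 85 bases of Mir425.

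The host gene depended on the annotation. In RefSeq, Dalrd3, which codes for a protein with a DALR anticodon-binding domain, spans 108567484 to 108572773 on chromosome 9 and holds both hairpins. In GENCODE M21, Dalrd3 begins 1024 bases after the end of Mir425, at 108569886, and the hairpins overlap the long noncoding RNA gene 4833445I07Rik (108567533 to 108569174). Its transcript 4833445I07Rik-201 is a single exon over both hairpins. The intron of 4833445I07Rik-202 contains Mir191, and that transcript ends at 108568774, just before Mir425. On the opposite strand a small RNA gene, Gm24083, is annotated over Mir191. No mRNA was measured in these samples, so levels of the host transcripts were not analysed here.

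**Figure D1:**
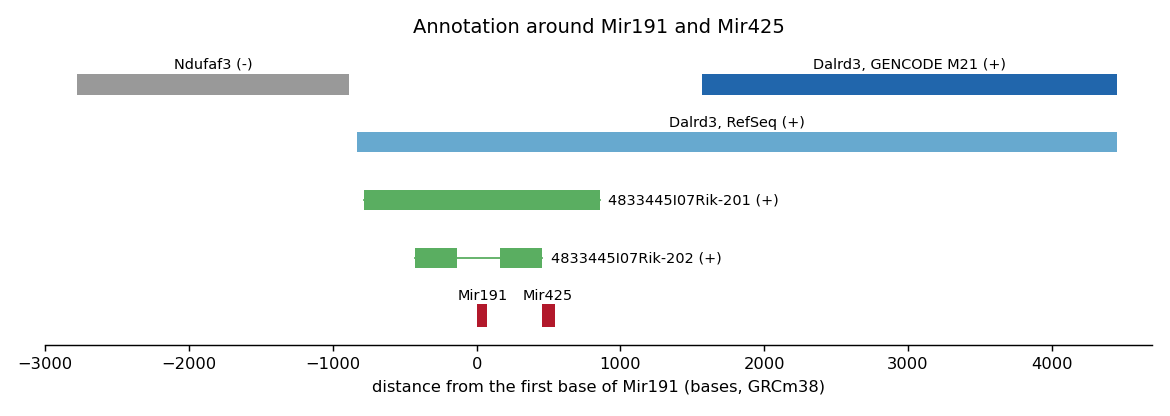
Annotated genes and transcripts around Mir191 and Mir425, drawn to scale by distance in bases from the first base of Mir191 (GRCm38). Filled bars are genes or exons and the thin line is an intron. Both hairpins lie inside Dalrd3 of RefSeq, but outside Dalrd3 of GENCODE M21, where they overlap 4833445I07Rik.

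The values are RPM, the reads of a miRNA per 1000000 mappable reads. The mappable reads numbered 4732359 to 5657704 per sample, and 3 reads corresponded to 0.530 to 0.634 RPM. Known miRNAs took 33.6% (NC-1) and 43.6% (NC-2) of the mappable reads without GAA, against 56.3% (GAA-1) and 50.4% (GAA-2) with it. Both GAA percentages lay above both NC percentages, as did the RPM values of 3 of the 4 members, and the part of this percentage in the RPM results was not tested. Each member was also expressed per 1000000 miRNA reads, here called its share. The miRNA reads, in the percentages as in the share, are the sum over all names. Names with the same values, such as miR-486a-5p and miR-486b-5p, each entered it, so a read could count more than once. Muscle miRNAs marked the cells as muscle, with 6 of 6 listed found. Their summed level was 5630 to 7100 RPM in NC and 4518 to 4894 RPM in GAA. The 6 were uneven in level. miR-133a-3p held 3059 and 3787 RPM in NC and 2251 and 2409 RPM in GAA, and miR-208b-3p 18.7 and 17.8 RPM in NC and 3.05 and 1.41 RPM in GAA. Of 5 blood-cell miRNAs, all 5 were found in some sample, at summed levels of 3.80 to 8.73 RPM in NC and 2.47 to 4.13 RPM in GAA. The neuronal miR-124-3p stayed between 0.177 and 0.359 RPM, whereas miR-9-5p, also a neuronal marker, stood at 27.8 and 41.2 RPM in NC and 59.5 and 43.0 RPM in GAA. The liver marker miR-122-5p was absent from the NC samples and had 3.05 and 0.354 RPM in the GAA samples. The part of these levels in the results was not tested.

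The guide strand miR-191-5p was by far the most abundant member, and its GAA samples lay above its NC samples by RPM but not by share. NC-1 held 4836 RPM of it, NC-2 held 5822 RPM, GAA-1 held 9853 RPM and GAA-2 held 6318 RPM. In such bulk samples, fewer cells that express a miRNA and less of it per cell cannot be told apart. Both GAA samples lay above both NC samples, yet GAA-2 was nearer to NC-2 than to GAA-1. NC averaged 5329 ± 697 RPM (SD, n = 2), and GAA averaged 8085 ± 2499 RPM (SD, n = 2). The log2 fold change on the log2(RPM + 1) scale was 0.57 (95% interval -0.24 to 1.38), with a standard error of 0.29 and an adjusted p of 0.385 in limma. The difference within GAA, 0.64 on the log2 scale, was larger than this difference between the groups.

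By share, miR-191-5p made up 1.44% of the miRNA reads of NC-1 (95% Wilson interval 1.42% to 1.46%) and 1.33% of those of NC-2 (1.32% to 1.35%). GAA-1 had 1.75% (1.74% to 1.76%), whereas GAA-2 had 1.25% (1.24% to 1.27%). The GAA samples enclosed the NC samples, with GAA-1 the highest of the 4 and GAA-2 the lowest. The log2 fold change of the share was 0.10 (95% interval -0.42 to 0.61, adjusted p = 0.898 in limma), which as a fold covers 0.746 to 1.53. The Wilson intervals cover counting error only, and with 23817 to 54844 reads per sample they were much narrower than the gap between GAA-1 and GAA-2.

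The passenger strand miR-191-3p was measured from few reads and was the member with the largest difference. NC-1 and NC-2 had 15 reads each, or 3.05 and 3.17 RPM, while GAA-1 had 38 reads (6.83 RPM) and GAA-2 had 34 reads (6.01 RPM). Its GAA samples lay above its NC samples both by RPM and by share, and the replicates of each group were close in RPM. The log2 fold change was 0.85 in RPM (standard error 0.21, 95% interval 0.27 to 1.43) and 0.51 by share (standard error 0.35, 95% interval -0.28 to 1.31). Neither passed the threshold, with adjusted p = 0.219 in RPM and 0.777 by share in limma. Each NC value had a 95% Wilson interval that overlapped those of both GAA samples, for example 0.000550% to 0.00150% of the miRNA reads in NC-1 and 0.000883% to 0.00166% in GAA-1.

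miR-425-5p, the guide strand of the other hairpin, followed miR-191-5p sample by sample. NC-1 held 92.4 RPM of it, NC-2 held 116 RPM, GAA-1 held 182 RPM and GAA-2 held 122 RPM. Again both GAA samples were above both NC samples in RPM, and GAA-2 was close to NC-2. The log2 fold change was 0.53 in RPM (standard error 0.27, 95% interval -0.23 to 1.28, adjusted p = 0.385 in limma). By share it was 0.05 (standard error 0.21, 95% interval -0.42 to 0.53, adjusted p = 0.928 in limma), from 275 and 266 per 1000000 miRNA reads in NC against 324 and 243 in GAA. The NC samples again lay between the GAA samples.

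miR-425-3p, the passenger strand of that hairpin, went another way in GAA-1 than the other members. NC-1 held 5.28 RPM of it (26 reads), NC-2 held 7.18 RPM (34 reads), GAA-1 held 6.11 RPM (34 reads) and GAA-2 held 8.84 RPM (50 reads). The groups overlapped in RPM and by share, and GAA-1, which had the highest value for each of the other members, was here lower than GAA-2. The log2 fold change was 0.22 in RPM (95% interval -0.56 to 1.01, adjusted p = 0.630 in limma) and -0.21 by share (95% interval -0.98 to 0.57, adjusted p = 0.824 in limma).

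**Figure D2:**
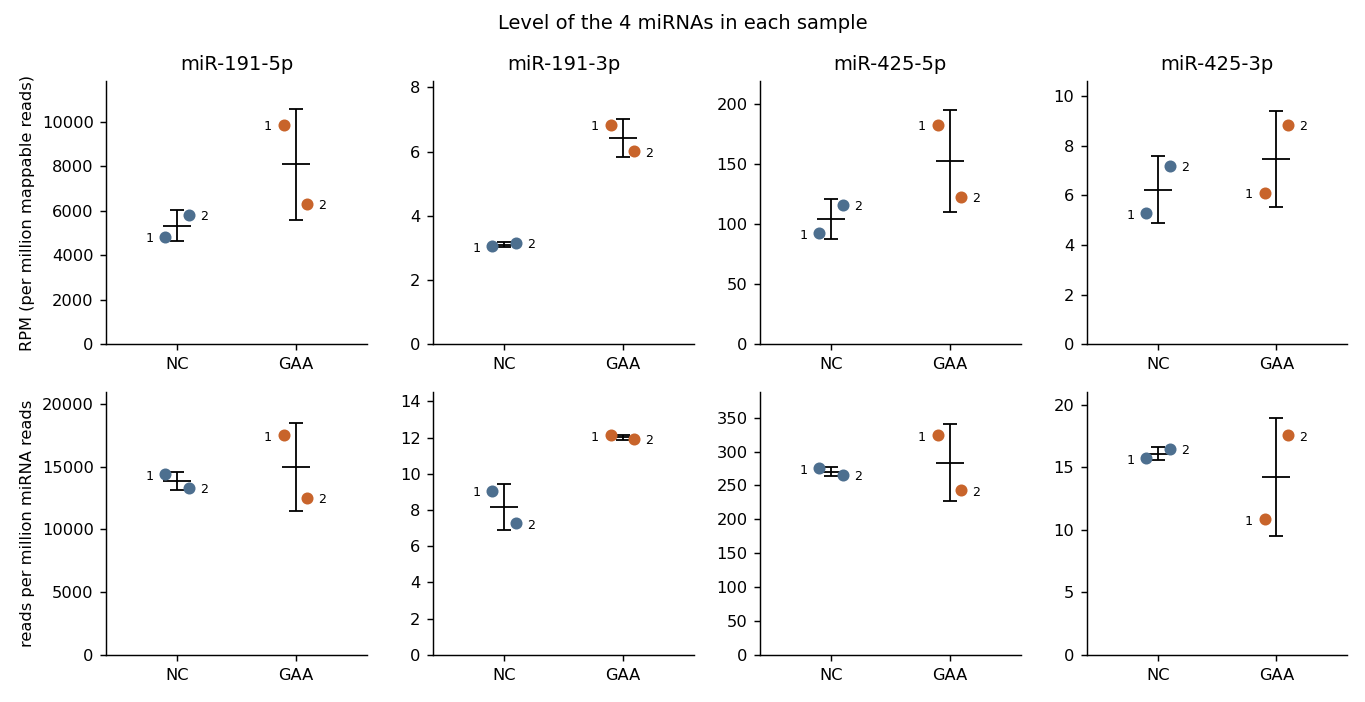
Level of each miRNA in each sample, as RPM (upper row) and per 1000000 miRNA reads (lower row), on linear axes that start at 0. Points are samples with their replicate number, and the bar and whiskers are the mean and SD of 2 samples. In RPM both GAA points lie above both NC points for all but miR-425-3p, and in the lower row this holds for miR-191-3p alone.

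The study's threshold is an adjusted p under 0.01 with a log2 fold change beyond 1 in either direction. The study applied it to edgeR on read counts, whereas here it was applied to limma on log2 values. In limma it was passed by 0 of the 4 members on either scale. Among the 869 miRNAs tested it was passed by 0% in RPM and by 0.115% by share, which is the muscle miRNA miR-208b-3p. The study reported a longer list of changed miRNAs, with miR-1a-3p as well as miR-133a-3p on it. No edgeR test was run here, so that list was not tested by the study's own method. At an unadjusted p under 0.05 in limma, 152 miRNAs stood out in RPM and 70 by share. Both GAA samples lay above both NC samples for 3 of the 4 members in RPM, where this held for 38.6% of all 869 miRNAs and for 64.4% of the 323 miRNAs that had 10 or more reads in all 4 samples. By share it held for 1 of 4 members, against 18.0% of the 869 and 22.9% of the 323. In RPM 91.6% of those 323 had a higher mean in GAA, and by share 52.9%. The median log2 fold change of the 323 miRNAs was 0.49 in RPM and 0.02 by share, and those of miR-191-5p and miR-425-5p lay above these medians by 0.09 and 0.04 in RPM and by 0.07 and 0.03 by share.

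**Figure D3:**
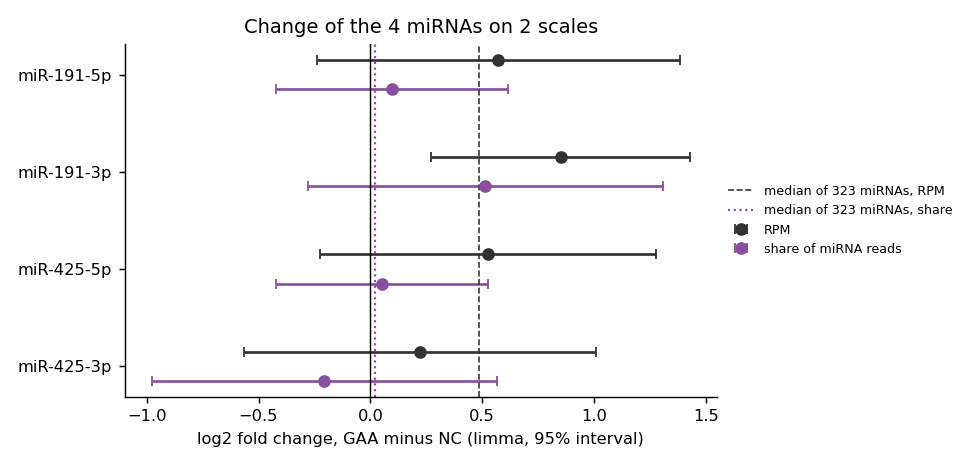
Log2 fold change of GAA over NC for the 4 miRNAs in RPM (dark) and as share of miRNA reads (purple), with 95% intervals from limma. The dashed and dotted lines are the medians of the 323 miRNAs that had 10 or more reads in all 4 samples, at 0.49 in RPM and 0.02 by share. The interval of miR-191-3p in RPM is the only one of the 8 that leaves out 0.

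Steadiness was then placed among the 323 miRNAs, as a description without a test. The SD of log2 values over the 4 samples was 0.44 in RPM and 0.21 by share for miR-191-5p, and 0.40 and 0.17 for miR-425-5p, where the medians of the 323 were 0.39 and 0.27. In RPM 63.8% of the miRNAs had a smaller SD than miR-191-5p and 55.4% a smaller one than miR-425-5p. By share 36.2% had a smaller SD than miR-191-5p and 24.5% a smaller one than miR-425-5p. Of the passenger strands, miR-425-3p had the lower SD in RPM, 0.28, and miR-191-3p the higher, 0.50. The replicates of NC differed by 0.11 for miR-191-5p and 0.05 for miR-425-5p on the log2 share scale, and those of GAA by 0.48 and 0.41, so the spread of both guides lay mostly within GAA.

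A list of 14 other miRNAs in common use as references was set beside the members. All 14 had a higher mean in GAA in RPM, with log2 fold changes from 0.16 to 1.33 and a median of 0.50. By share 7 of 14 were higher, with a range of -0.31 to 0.86 and a median of 0.02, and 0 of 14 passed the threshold on either scale. The SD over the 4 samples was smaller than that of miR-191-5p for 9 of the 14 in RPM and for 6 of the 14 by share. The steadiest of the list by share was miR-24-3p, with an SD of 0.09 on the log2 scale. Even so, both of its GAA samples lay below both NC samples by share (log2 fold change -0.13, standard error 0.19). The least steady were miR-423-3p, miR-423-5p and miR-484, at 0.50, 0.50 and 0.54.

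Of the 3 most abundant of the list, miR-26a-5p had a log2 fold change of 0.54 in RPM (standard error 0.20) and 0.07 by share (0.23). miR-16-5p, of the miR-15/16 family that targets cell cycle mRNAs, had 0.68 in RPM (standard error 0.20) and 0.21 by share (0.20). miR-30e-5p had 0.34 in RPM (standard error 0.35) and -0.13 by share (0.24). None of the 6 values passed the threshold, with adjusted p from 0.254 to 0.928 in limma.

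**Figure D4:**
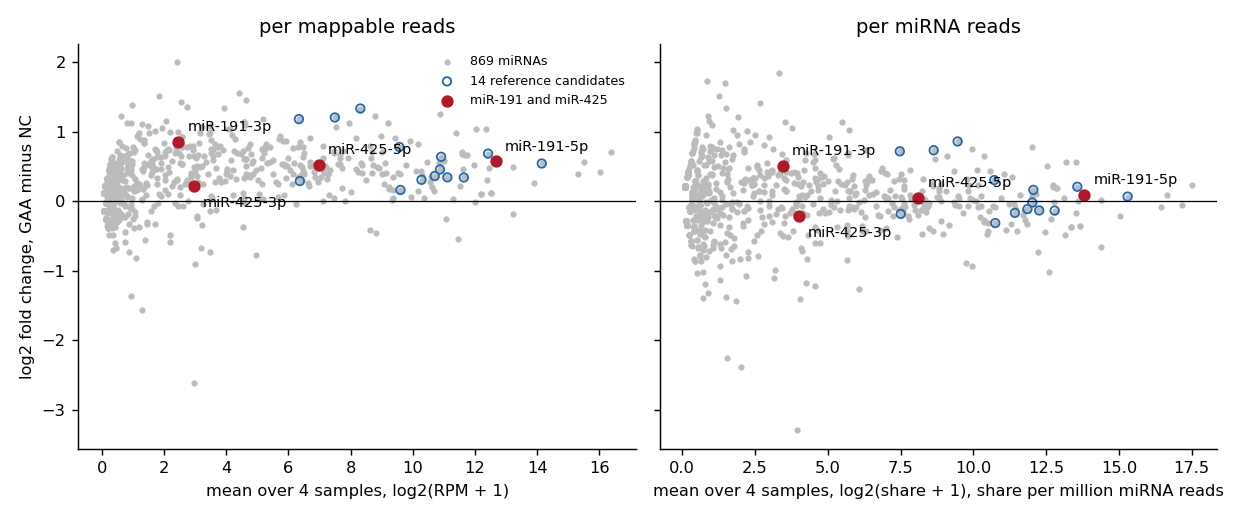
Log2 fold change of GAA over NC against the mean over the 4 samples for all 869 miRNAs (grey), the 14 reference candidates (open blue circles) and the 4 members (red), per mappable reads (left) and per miRNA reads (right). The cloud of abundant miRNAs lies above 0 on the left and around 0 on the right, with miR-191-5p and miR-425-5p inside it in both panels.

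Ratios between the members of a sample do not depend on the number by which its reads are divided. The ratio of miR-191-5p to miR-425-5p was 52.3 for NC-1 (95% Wilson interval 47.7 to 57.4) and 50.2 for NC-2 (46.1 to 54.6). It was 54.0 for GAA-1 (50.8 to 57.5) and 51.6 for GAA-2 (47.8 to 55.6). The 4 values overlapped within counting error, although the level of miR-191-5p ranged from 4836 to 9853 RPM. The log2 ratio averaged 5.68 ± 0.04 (SD, n = 2) for NC and 5.72 ± 0.05 (SD, n = 2) for GAA, a difference of 0.04 (two-sided exact permutation test, p = 0.667). With 2 samples against 2, this test cannot give a p below 0.333.

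This ratio varied less than that of most pairs of miRNAs. On the log2(RPM + 1) scale its SD over the 4 samples was 0.05. Of all 52003 pairs among the 323 miRNAs, 157 pairs, or 0.302%, had a smaller SD, and the median pair had 0.35. Some pairs are names with the same values, such as miR-486a-5p and miR-486b-5p, and these were counted too. Among 71 pairs of miRNAs from hairpins on the same strand within 10 kb of each other, the pair of miR-191-5p and miR-425-5p had the smallest SD, where the median was 0.30 and the largest 1.24. The pair of miR-25-3p and miR-106b-5p, from the Mcm7 cluster, came next at 0.08. By the difference in log2 fold change between partners, 0.05, the miR-191 and miR-425 pair ranked 7 of 71. The pairs share libraries and, in part, miRNAs, so these ranks describe the 4 samples and carry no p. The SD also holds counting error, and the pairs were not matched for read depth. miR-425-5p, the scarcer of the 2 guides, had 455 to 1015 reads per sample, where other pairs could hold miRNAs with 10. For the 71 pairs, each hairpin was represented by its most abundant strand among names with a single genomic locus. Some hairpins were therefore represented by their scarcer strand, such as miR-16-2-3p and miR-30c-1-3p, so not every pair was one of 2 guides.

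The passenger strands were less regular. There were 1588 reads of miR-191-5p for each read of miR-191-3p in NC-1 and 1837 in NC-2, while GAA-1 had 1443 and GAA-2 had 1051. Both GAA ratios were below both NC ratios, by 0.47 in the mean log2 ratio, the clearest order that this design allows (two-sided exact permutation test, p = 0.333). Counting error alone was wide, since the NC ratios rested on 15 reads of miR-191-3p each, with 95% Wilson intervals of 962 to 2620 (NC-1) and 1113 to 3031 (NC-2).

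For miR-425 the ratio of the 5p to the 3p strand was 17.5 for NC-1 and 16.1 for NC-2, but 29.9 for GAA-1 and 13.9 for GAA-2. GAA-1 had the highest ratio, with a Wilson interval of 21.2 to 41.9 that did not reach that of GAA-2, 10.4 to 18.4. The GAA-1 interval did overlap those of NC-1, 11.8 to 25.9, and NC-2, 11.4 to 22.8. The ratios of the groups overlapped (two-sided exact permutation test, p = 1). The mean log2 ratio was 0.28 higher in GAA, and without GAA-1 it was 0.28 lower (-0.28). Of 85 hairpins whose strands both had 10 or more reads in all 4 samples, miR-191 had the uneven strands of rank 3, with a mean log2 ratio of 10.20 on the log2(RPM + 1) scale, and miR-425 ranked 43 at 4.02. The SD of this ratio over the 4 samples was 0.27 for miR-191 and 0.46 for miR-425, with a median of 0.33 over the 85.

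**Figure D5:**
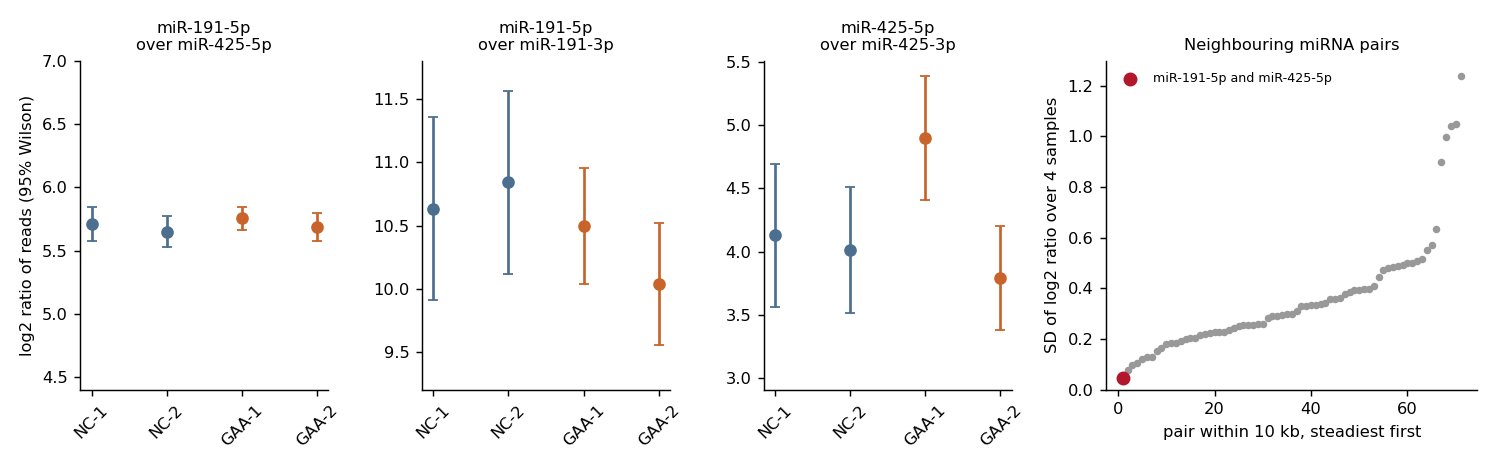
Log2 ratios of reads between members in each sample, with 95% Wilson intervals (3 panels with the same height of scale), and the SD of the log2 ratio over the 4 samples for 71 neighbouring miRNA pairs in ascending order (right). The ratio of miR-191-5p to miR-425-5p stays between 50.2 and 54.0 and its pair is the leftmost point on the right, while the ratio of the miR-425 strands is highest in GAA-1.

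The miRNAs closest to miR-191-5p in their course over the 4 samples were found by the Euclidean distance of log2(RPM + 1) values centred on the mean of each miRNA. miR-425-5p came first of 322 at 0.08, followed by miR-320-3p at 0.11, miR-871-3p at 0.11, miR-301a-3p at 0.11 and let-7c-2-3p at 0.14, where the median distance was 0.50. Left out of these 5, let-7a-1-3p had the same log2 fold change (0.03) and standard error (0.21) by share as let-7c-2-3p. miR-320-3p, for example, stood at 161 and 198 RPM in NC and 305 and 203 RPM in GAA. Of the passenger strands, miR-191-3p was at place 142 with a distance of 0.47, close to the median, and miR-425-3p was farther away at place 290 with 0.86. The measure rests on 4 points for each miRNA, so other miRNAs with the same order of samples come near as well.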

How the data were processed

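Small RNA libraries of 2 NC and 2 GAA samples of C2C12 myotubes were analysed, with groups from the sample titles. The authors filtered the reads, mapped them to GRCm38, counted known miRBase miRNAs with miRDeep2 and divided the counts by mappable reads to give RPM. Values were deposited on a log2 scale, as log2(RPM + 1), under the header log(rpm)+1, and a miRNA without reads has no row and was set to 0. In each sample RPM rose in equal steps of 1 read (0.177 to 0.211 RPM), and 95.4% to 96.0% of the values were whole reads within 0.02, including all values of the members. Recovered reads served for depth, ratios, filters and 95% Wilson intervals. Adaptor ligation depends on the ends of a small RNA, so ratios between miRNAs are not molar.

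All 869 miRNAs were fitted with limma 3.58.1 (R 4.3.3, condition only, mean-variance trend) on log2(value + 1), in RPM and after division by summed miRNA RPM, with Benjamini-Hochberg adjustment and no filter on low values. The added 1 makes fold changes of scarce miRNAs too small. No count model was fitted to the recovered reads. On simulated data for the RPM comparison (869 miRNAs, 200 changed by 3 on the log2 scale, noise SD 0.1), 100% were called in the right direction with 0 false calls. The changed miRNAs were drawn from those with a mean log2 value above 2. The noise was smaller than in these samples, where replicates differed by a median of 0.27 (NC) and 0.28 (GAA) over 323 miRNAs. The simulation therefore checks the code and does not show whether changes of the size seen in the members would be found. Ratios were tested by exact permutation with scipy 1.17.1, and hairpins were folded with RNAfold 2.7.2.

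The members, the reference and marker lists and the tests were chosen with earlier results of these data known. Named miRNAs were the members, those with a member's seed, the 5 nearest in pattern to miR-191-5p, and from the reference list the 3 most abundant. The muscle, blood, liver and neuronal miRNAs came from the marker list. From its 6 muscle miRNAs, miR-1a-3p and miR-133a-3p (followed by the study) and miR-208b-3p (the only one called) were named with their values known. The miRNAs at the ends of the reference list by SD, the neighbouring pair ranked after the members and the names with the same values were named after their values were seen. Of the 869 names, 717 had a mature sequence in the RefSeq table, with all 4 members among them.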

Additional observations from a re-analysis of the deposited data

How the results depend on the processing

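None of the 8 fold changes of the members passed the threshold under any of 99 alternative values (lowest adjusted p = 0.0801 in limma, for miR-191-3p in RPM with 10 or more reads in all 4 samples). With 1 sample left out, 1 group has a single sample, which is assumed to vary like the other group. Leaving out GAA-1 turned the sign of 3 members by share, and leaving out GAA-2 that of miR-425-3p in RPM. Across these omissions the range of log2 fold changes was from -0.14 to 0.34 by share for miR-191-5p, from -0.15 to 0.26 by share for miR-425-5p, from -0.53 to 0.12 by share and from -0.0123 to 0.46 in RPM for miR-425-3p. The RPM change of miR-191-5p ranged from 0.25 without GAA-1 to 0.89 without GAA-2, and that of miR-425-5p from 0.24 to 0.81. For miR-191-3p the range was from 0.77 to 0.93 in RPM and from 0.37 to 0.66 by share. With a pseudocount of 0.1 and all samples, its RPM change was 1.02 (adjusted p = 0.207 in limma), beyond 1 but not under the limit on the adjusted p. For miR-425-5p by share, median-of-ratios factors gave -0.00116 and division by miR-191-5p gave -0.0424, where the main value was 0.05. With each sample left out, the difference between the groups in the log2 ratio of miR-191-5p to miR-425-5p ranged from 0.01 to 0.08 (0.04 with all samples). That of the miR-191 strands ranged from -0.70 to -0.24, and that of the miR-425 strands from -0.28 without GAA-1 to 0.83 without GAA-2. With a pseudocount of 1 the 3 differences were 0.05, -0.28 and 0.30. Division by miR-191-5p or by miRNA reads without the members, the crossed pairing, and all alternatives for the ratios were chosen after seeing the data.

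Over all 869 miRNAs, 0 were called in RPM under every alternative. By share 1 miRNA, miR-208b-3p, was called, and 0 with a pseudocount of 0.1 and without the variance trend. With 10 or more reads in all 4 samples 0 were called as well, but that filter removed miR-208b-3p before the test. It had 92 (NC-1), 84 (NC-2), 17 (GAA-1) and 8 (GAA-2) reads. The replicate number as a block gave 6 calls by share, and 4 together with division by miRNA reads without the 5 most abundant. Same-numbered samples did not deviate together (correlation -0.15 over 323 miRNAs on both scales, which are not independent replicates), so the numbers were not taken as pairs, and the crossed pairing gave 0 calls in RPM and 6 by share. None of these calls was a member. Apart from that filter, the cause of these differences was not tested. Among the members, the passenger strands, with 15 to 50 reads per sample, are the values that depth limits.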

Other observations

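With miR-191-5p as the divisor in place of the miRNA reads, a setting chosen after seeing the data, the median log2 fold change of the 323 miRNAs that had 10 or more reads in all 4 samples was -0.07. Only miR-208b-3p, a miRNA from an intron of the slow myosin gene Myh7, passed the threshold (log2 fold change -3.11, adjusted p = 5.04e-09 in limma). By share of miRNA reads miR-208b-3p changed by -3.30 on the log2 scale, and limma gave an adjusted p of 0.00639. The standard errors were alike, at 0.37 by share and 0.38 with miR-191-5p as the divisor. The smaller p with that divisor thus went with neither a larger change nor a smaller standard error. Why these p-values differed was not tested. In GAA the miRNA was scarce, with 17 reads (3.05 RPM) in GAA-1 and 8 reads (1.41 RPM) in GAA-2. Its level was 0.386% and 0.305% of that of miR-191-5p in NC and 0.0310% and 0.0224% in GAA. The other 5 of the 6 listed muscle miRNAs had log2 fold changes of -0.82 to -1.33 and did not pass it, among them miR-133a-3p at -1.12 (standard error 0.29, adjusted p = 0.0365 in limma) and miR-1a-3p at -1.33 (standard error 0.30, adjusted p = 0.0148 in limma). For miR-133a-3p the log2 fold change was -0.55 in RPM and -1.02 by share of miRNA reads, and for miR-1a-3p it was -0.77 and -1.26. miR-133a-3p stood at 63.3% and 65.1% of miR-191-5p in NC and at 22.8% in GAA-1 and 38.1% in GAA-2.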
